A study of Drosophila melanogaster with 3 samples.

Results

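The genes described here encode proteins of the cytoplasmic ribosome of Drosophila melanogaster. They are 56 genes, 39 for the large and 17 for the small subunit, chosen from a list of symbols by the locus tag of the array's probes. All 56 were on the array, with 109 of its 32162 probes, and they are among 13152 genes to which a probe could be matched. Of the 109 probes, 80 belong to the large and 29 to the small subunit, and all were among the 24878 probes tested. The list does not hold every ribosomal protein gene: 36 other genes on the array with names of the same form were set beside it as a list of their own.

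RNA came from 3 tissues of the wild-type OreR strain, with 4 arrays for each. The premeiotic germline was dissected from the apical tip of testes, with the sheath removed, from males that the series' design text gives as 2 to 4 days old, while the study's methods give a wider range of ages for all its flies, which were mated. Beside germ cells up to the early spermatocyte, the tips include somatic cells of the hub and of the cysts, so they are enriched for premeiotic cells and not a pure population. Male thorax and female thorax of adults, without legs and wings, are largely flight muscle. Many dissections were pooled for each array, so an array is a pool and not a fly, and total RNA was amplified before labelling. The arrays lie on 3 slides, with thorax of both sexes on slide A, germline and male thorax on slide B, and germline and female thorax on slide C. Replicate numbers name only slide and position.

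A ribosome joins a small subunit, which reads the messenger RNA, to a large subunit, which forms the peptide bond. Each subunit is built of ribosomal RNA and of ribosomal proteins that are mostly present in 1 copy, and cells make both sets of proteins in step. In Drosophila many of these genes are known as Minute loci, because loss of a single copy slows development. Their transcripts are among the most abundant in nearly all tissues, and genes such as RpL32 are used as reference genes in quantitative PCR.

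Against male thorax the markers of muscle and of the germline were where the labels put them. All 9 muscle markers were lower and all 9 germline markers higher in the premeiotic germline than in male thorax, with and without scaling of the arrays. Against female thorax all 9 muscle markers were lower and 8 of the 9 germline markers were called higher on the relative scale, with a lowest change of 0.63. The summed signal of the germline markers was 8.63 to 9.12 in male thorax and 8.16 to 11.74 in female thorax. The summed signal of the 9 muscle markers was 13.1 to 14.9 on the log2 scale in germline against 19.8 to 20.9 in male thorax. The summed signal of 4 fat body markers (yolk protein genes and Lsp2) was 11.6 to 13.2 in germline, 12.1 to 15.9 in male thorax and 19.3 to 19.9 in female thorax. In female thorax the mean log2 signal was 17.58, 18.23 and 18.12 for Yp1, Yp2 and Yp3 and 15.42 for Lsp2. The sum there is thus mostly of yolk protein genes. All 4 genes listed as spermatid markers (dj, Mst87F, ocn and janB) were also higher in germline than in male thorax with and without scaling. Their summed signal was 19.5 to 19.8 in germline, where the 9 germline markers summed to 17.97 to 18.85, and 10.2 to 11.9 in male thorax. The study measured transcripts of ocn promoter reporters in premeiotic cells too, and it gives no such measurement for the other genes of this list. Whether cells of later stages add to the signal of these spermatid markers was not tested. On the relative scale 1 of 3 cyst markers was higher and 0 lower, 1 of 2 hub markers was higher and 1 lower, and both nervous system markers were lower. The part of each cell type, and of the stages of the germline, in the results below was not tested. A difference in signal from a dissected tissue cannot tell fewer cells of a type from less RNA per cell.

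The scale of the arrays decides the direction of much of what follows. The 75th percentile of all probes lay at 13.5 to 13.8 on the log2 scale on the 4 germline arrays, at 10.9 to 11.7 in male thorax and at 10.48 to 11.2 in female thorax. On the unscaled values the median of all probes tested was 1.29 higher in germline than in male thorax, and on values relative to each array's 75th percentile it was 1.05 lower. The main changes below are therefore given beside that of all probes, and under both scales. Germline replicate 1 stood apart from the other 3 germline arrays, with a correlation of 0.81 to each over all probes, and a result that rests on it is given with and without it.

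On the unscaled values the ribosomal protein genes were bright and nearly level across the 12 arrays. For each gene the probe with the highest mean over the 12 arrays was used. The median over the 56 genes was 17.4, 17.0, 17.3 and 17.3 on the log2 scale on germline arrays 1 to 4. It was 17.1, 17.3, 16.6 and 16.7 in male thorax, and 17.3, 16.7, 17.4 and 17.4 in female thorax. The groups overlapped, and the arrays differed within thorax by about as much as between the tissues. No spot of these genes was saturated, and all 56 genes were well above background on every array with the exception of germline replicate 1, where 55 were.

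**Figure D1:**
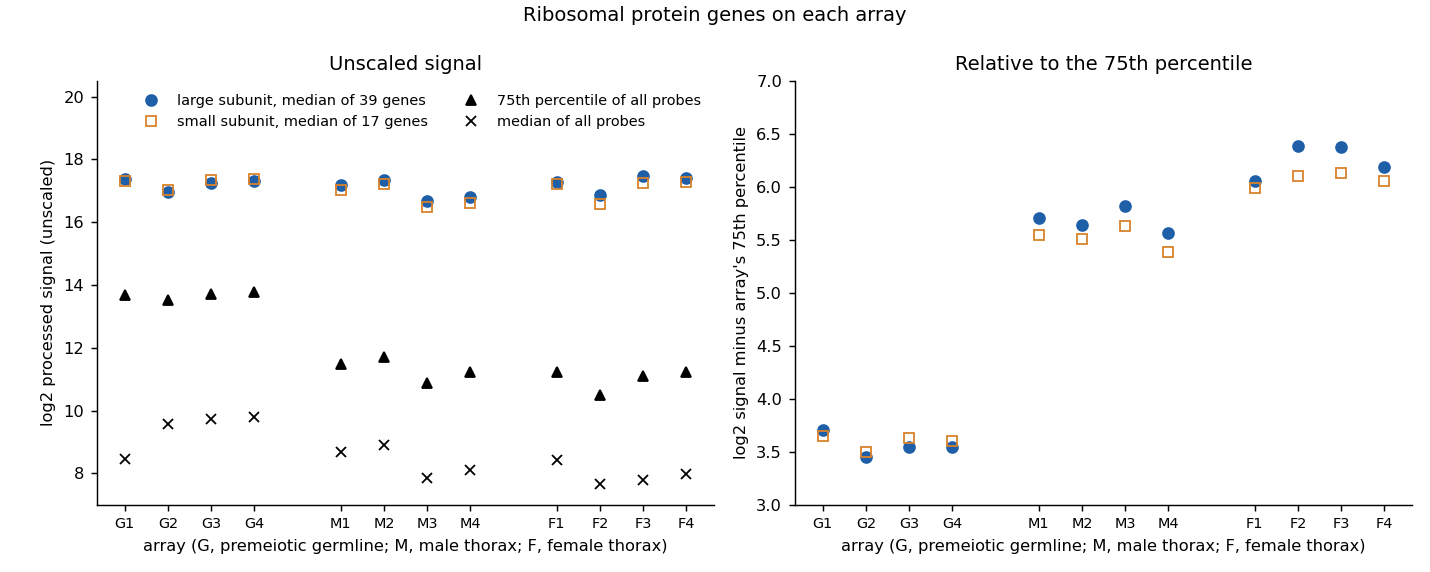
Median log2 processed signal of the 39 large subunit genes (filled circles) and 17 small subunit genes (open squares) on each of the 12 arrays, unscaled at left with the 75th percentile and median of all probes, and relative to the array's 75th percentile at right. The unscaled medians of the genes stay between 16.5 and 17.5 on all arrays, while the 75th percentile is at 13.5 or more in germline and under 12 in thorax, so that the relative medians are lowest in germline.

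Ranked among all 32162 probes of its array, the median ribosomal protein gene stood at percentile 98.6 ± 0.27 on the germline arrays, 98.8 ± 0.14 on those of male thorax and 99.1 ± 0.22 on those of female thorax (mean and SD, n = 4). These ranks do not depend on a scaling factor. The number of the 56 genes below the 98th percentile was 26, 21, 18 and 13 on germline arrays 1 to 4, 5 to 7 in male thorax and 1 to 8 in female thorax. The germline arrays thus held more of these genes under the top 2% than any thorax array, and the groups did not overlap in this count. The genes' median percentile on single arrays ran from 98.2 to 99.3, close to that cut. A small shift in rank therefore moves many genes across it. The ranks set different probes side by side, so they serve only to compare the same genes between arrays.

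RpL32 is a large subunit protein whose transcript served the study as the control in quantitative PCR of its reporter transgenes. The study considers this transcript likely to be less abundant in its meiotic dissections. RpL32 shows the contrast of the scales in a single gene (CG7939, chromosome arm 3R, 1 probe). Its unscaled log2 signal was 17.50, 17.00, 17.15 and 17.32 in germline, 17.18, 17.50, 16.88 and 17.05 in male thorax, and 17.69, 17.26, 17.79 and 17.67 in female thorax. The germline and male thorax arrays overlapped throughout that range. Relative to the 75th percentile the same arrays read 3.83, 3.48, 3.45 and 3.54 in germline, 5.70, 5.79, 6.01 and 5.81 in male thorax, and 6.46, 6.77, 6.69 and 6.44 in female thorax, with no overlap between the 3 tissues. The fitted change from male thorax to germline was −2.25 ± 0.19 (SE) on the relative scale (adjusted p = 5.45e-07, limma) and 0.09 ± 0.27 unscaled (adjusted p = 0.779, limma).

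The comparison of premeiotic germline with male thorax asks how the 2 tissues of one sex differ. Relative to the 75th percentile, 55 of the 56 genes were called lower in germline and 0 higher (limma, adjusted p under 0.05 over all 24878 probes), whereas without scaling 0 were called lower and 2 higher. The background on the relative scale was 47.2% of all probes lower and 29.3% higher. Without scaling it was 24.5% lower and 48.2% higher. At an unadjusted p under 0.05 the relative scale gave 0 genes higher and 55 lower, and the unscaled values gave 3 higher and 0 lower. The shares of all probes at that p cannot be smaller than the shares called.

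The median change of the 56 genes was −2.12 relative to the 75th percentile, or 4.34-fold lower, and 0.23 unscaled, or 1.17-fold higher. The median of all probes was −1.05 and 1.29 on those scales. The ribosomal protein genes therefore lay 1.06 below the median of all probes on either scale, which differ only by a constant for each array. Quantile normalization, which gives all arrays one distribution, removed that gap: the genes' median was −0.31 and that of all probes −0.36. With it 17 genes were called lower and 1, RpS2, higher, beside 41% and 34.5% of all probes. All 17 were among the 55.

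On the slide that holds both tissues, slide B, the median change was −2.15 on the relative scale, without a test. One of the germline arrays there is replicate 1, and without it the value was −2.19. Over single probes rather than genes, 98 of the 109 were called lower on the relative scale and 0 higher, and 5 were called higher and 0 lower without scaling.

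**Figure D2:**
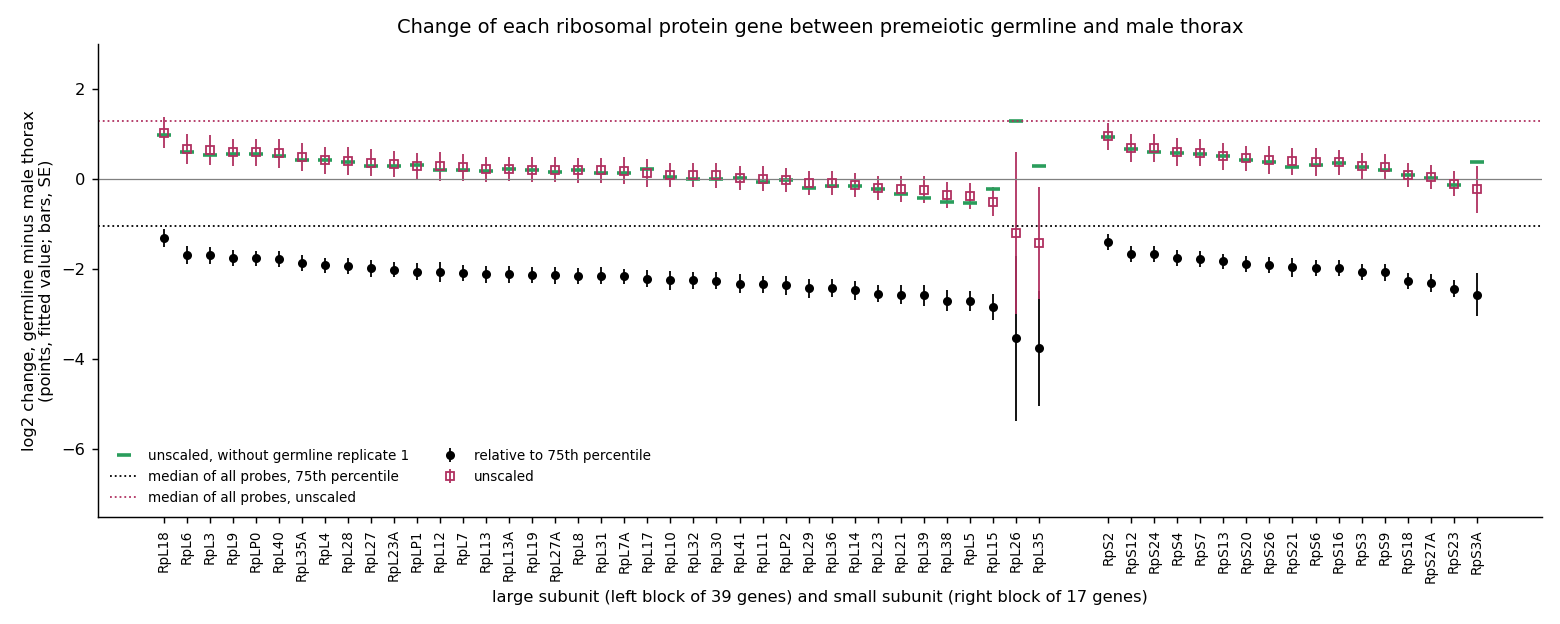
Fitted log2 change from male thorax to premeiotic germline for each of the 56 genes, with the large subunit at left and the small subunit at right, relative to the 75th percentile (filled circles) and unscaled (open squares), with bars of 1 SE. Green marks give the unscaled change without germline replicate 1, and dotted lines the median of all probes on each scale (−1.05 and 1.29). The genes of both subunits form narrow bands, except that RpL26, RpL35 and RpS3A sit apart at the low end with wide bars, and their green marks lie above 0.

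Both subunits shared this pattern. On the relative scale 38 of 39 large subunit genes and 17 of 17 small subunit genes were called lower in germline than in male thorax, with medians of −2.15 and −1.96. Without scaling the medians were 0.19 and 0.39, with 1 gene of each subunit called higher and 0 lower. The changes ran from −3.76 to −1.32 in the large subunit and from −2.57 to −1.39 in the small subunit on the relative scale.

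The difference between the subunits was small but in one direction on all germline arrays. With each probe set to its own mean over the 12 arrays, the large subunit's median less that of the small subunit was −0.11, −0.07, −0.16 and −0.11 on germline arrays 1 to 4. It was 0.06, 0.01, 0.12 and 0.08 in male thorax, and −0.01, 0.11, 0.01 and 0.01 in female thorax. The germline and male thorax arrays did not overlap. The difference of the medians of change was −0.20 in germline against male thorax and −0.08 against female thorax, the same with and without scaling, and 0.02 and 0.08 after quantile normalization. No test was made of it, since genes of a subunit are not replicates.

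RpL18 and RpS2 had the smallest falls on the relative scale within their subunits, and they alone were called higher in germline without scaling. RpS2, which lies where the messenger RNA enters the small subunit, read 17.54, 17.29, 17.51 and 17.69 in germline, 16.72, 16.87, 16.27 and 16.38 in male thorax, and 16.84, 16.13, 17.05 and 17.05 in female thorax (unscaled log2 signal, CG5920, arm 2L). All 4 germline arrays were above all 8 thorax arrays. The unscaled change against male thorax was 0.95 ± 0.30 (SE; adjusted p = 0.0124, limma) and against female thorax 0.74 ± 0.30 (adjusted p = 0.0403, limma), while relative to the 75th percentile these were −1.39 ± 0.18 (adjusted p = 2.08e-05, limma) and −1.91 ± 0.18 (adjusted p = 1.33e-06, limma). RpS2 was also the one gene called higher with quantile normalization, by 0.73 against male thorax.

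RpL18, a large subunit protein, read 17.27, 16.76, 17.21 and 17.19 in germline, 16.33, 16.53, 15.66 and 15.82 in male thorax, and 16.32, 15.56, 16.65 and 16.64 in female thorax (unscaled log2 signal, CG8615, arm 3L). Again no thorax array reached a germline array. Its unscaled change was 1.03 ± 0.34 against male thorax (adjusted p = 0.0154, limma) and 0.82 ± 0.34 against female thorax (adjusted p = 0.0440, limma). The latter had an adjusted p of 0.0535 without germline replicate 1. On the relative scale RpL18 was 1.32 lower than in male thorax (adjusted p = 7.68e-05, limma).

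With all arrays, RpL6 and RpS12 had the next smallest falls within their subunits, with RpS24 level with RpS12 at −1.66. RpL6 was 1.68 ± 0.20 lower on the relative scale and 0.67 ± 0.34 higher unscaled in germline than in male thorax. RpS12, which in Drosophila takes part in the competition between cells that differ in ribosomal protein dose, was 1.66 ± 0.18 lower and 0.68 ± 0.31 higher on those scales. Neither unscaled change passed the test (adjusted p = 0.0966 and 0.0682, limma).

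The falls of RpL35 and RpL26, the largest of the 56, took their size from a single array. Those of RpL5 and RpL38, both chosen after their values were seen, did not. Their relative changes against male thorax were −2.71 and −2.70 with all arrays, and −2.89 and −2.85 without germline replicate 1. RpL26, which sits near the exit of the growing chain from the large subunit, was read by 1 probe and had an unscaled log2 signal of 6.10, 15.79, 16.03 and 16.21 in germline against 15.08, 15.39, 14.04 and 14.40 in male thorax and 15.22, 14.36, 15.05 and 15.07 in female thorax (CG6846, arm 3L). Germline replicate 1 lay more than 9 units below the other germline arrays, which were all above the 8 thorax arrays. With it, the relative change against male thorax was −3.54 ± 1.84 and was the only one of the 56 that was not called (adjusted p = 0.0997, limma). Without it the relative change was −1.06 ± 0.16 (adjusted p = 8.94e-05, limma) and the unscaled change 1.28 ± 0.36 (adjusted p = 0.0052, limma), so that the unscaled direction turned.

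RpL35, an X-linked gene of a protein near the same exit, behaved alike (CG4111, 3 probes). Its brightest probe read 9.73, 16.29, 16.57 and 16.74 in germline, 16.34, 16.61, 15.87 and 16.16 in male thorax, and 16.43, 15.65, 16.62 and 16.67 in female thorax. The relative change against male thorax was −3.76 ± 1.27 with all arrays and −2.06 ± 0.13 without germline replicate 1, and the unscaled change −1.42 ± 1.25 and 0.28 ± 0.31.

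In the small subunit the lowest values were those of RpS3A and RpS23. RpS3A, on chromosome 4 and the only member there, read 14.86, 17.05, 17.37 and 17.38 in germline, 17.08, 17.32, 16.50 and 16.66 in male thorax, and 17.27, 16.71, 17.19 and 17.29 in female thorax (unscaled log2 signal, CG2168). Its relative change against male thorax was −2.57 ± 0.48 with all arrays and −1.96 ± 0.11 without germline replicate 1, and its unscaled change −0.23 ± 0.52 and 0.38 ± 0.29. RpS23, a protein of the decoding centre, did not rest on that array: it was 2.44 ± 0.19 lower on the relative scale and 2.47 ± 0.15 lower without replicate 1, and its unscaled change was −0.10 ± 0.27.

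**Figure D3:**
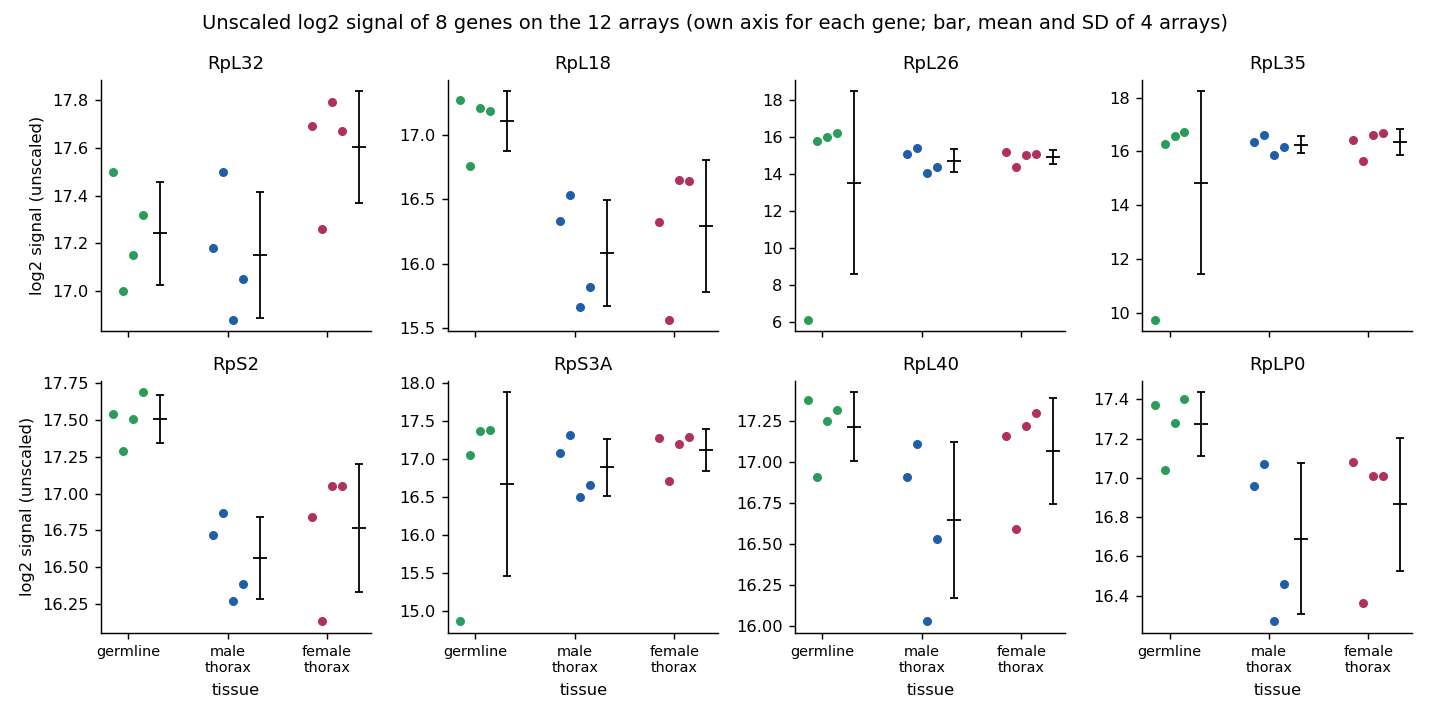
Unscaled log2 signal of 8 genes in premeiotic germline, male thorax and female thorax, with 1 point for each array and, beside it, the mean with a bar of 1 SD over 4 arrays; each gene has its own axis. RpL18 and RpS2 are above all thorax arrays in germline, RpL32 overlaps, and RpL26, RpL35 and RpS3A have a single low germline array (6.10, 9.73 and 14.86), which is replicate 1.

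The stalk of the large subunit, which recruits the elongation factors, is formed by RpLP0, RpLP1 and RpLP2. RpLP0, its base, read 17.37, 17.04, 17.28 and 17.40 in germline, 16.96, 17.07, 16.27 and 16.46 in male thorax, and 17.08, 16.36, 17.01 and 17.01 in female thorax (unscaled log2 signal). The ranges overlapped by a narrow margin in both comparisons. Against male thorax the changes were −1.76 ± 0.17 for RpLP0, −2.06 ± 0.19 for RpLP1 and −2.36 ± 0.21 for RpLP2 on the relative scale, all called, and 0.59 ± 0.30, 0.28 ± 0.30 and −0.02 ± 0.26 unscaled, none called.

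RpL40 and RpS27A are each made as a fusion with ubiquitin, from which the ribosomal part is cut. RpL40 read 17.38, 16.91, 17.25 and 17.32 in germline, 16.91, 17.11, 16.03 and 16.53 in male thorax, and 17.16, 16.59, 17.22 and 17.30 in female thorax (unscaled log2 signal). RpS27A read 17.34, 17.15, 17.33 and 17.44 in germline, 17.49, 17.63, 17.03 and 16.97 in male thorax, and 17.62, 17.35, 17.72 and 17.64 in female thorax. Both genes overlapped between germline and male thorax, and the relative changes were −1.77 ± 0.18 and −2.31 ± 0.19, with unscaled changes of 0.57 ± 0.32 and 0.04 ± 0.27 that were not called.

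Against female thorax the relative fall was larger and the unscaled median nearer 0. The median change of the 56 genes was −2.67 on the relative scale, or 6.36-fold lower, and −0.02 unscaled, beside −1.05 and 1.60 for all probes. On the relative scale 55 genes were called lower and 0 higher, beside 47.4% of all probes lower, and RpL26 was again the exception (−4.05 ± 1.84, adjusted p = 0.0641, limma). At an unadjusted p under 0.05 the counts were 56 lower and 0 higher, beside no less than 47.4% of all probes lower.

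Without scaling 2 genes, RpL18 and RpS2, were called higher than in female thorax and 0 lower, where 51.5% of all probes were higher. At an unadjusted p under 0.05, 2 were higher and 2 lower, beside no less than 51.5% of all probes higher. Without germline replicate 1 the unscaled calls were RpL26 and RpS2 higher and RpL5 and RpL38 lower, beside 58.5% and 24.2% of all probes. With quantile normalization 25 were called lower and 1, RpS2, higher, beside 41.6% of all probes lower. The germline arrays are the same in both comparisons, so that the pair of results is not independent. On slide C, which holds germline and female thorax and not germline replicate 1, the median change was −2.67 on the relative scale.

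Male and female thorax differed less. Relative to the 75th percentile, 0 of the 56 genes were called in either direction (limma), beside 0.37% of all probes called lower in males, and 47 had an unadjusted p under 0.05, all lower in males, beside 3.9% of all probes lower at that p. All 56 fitted changes were below 0, with a median of −0.53, or 1.45-fold lower in males, beside 0.04 for all probes. The genes share the arrays, so that their common sign is not 56 observations. The relative median over the genes was 5.60, 5.58, 5.72 and 5.48 on the male arrays and 6.02, 6.26, 6.29 and 6.12 on the female arrays, with no overlap.

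Without scaling the median change between the sexes was −0.23, beside 0.35 for all probes, with 0 genes called and 0 at an unadjusted p under 0.05, and the male and female arrays overlapped. RpL32 was 0.76 ± 0.19 lower in males on the relative scale (adjusted p = 0.190, limma) and 0.45 ± 0.27 lower unscaled. The count of calls differed between fits. Without germline replicate 1, which leaves the thorax values as they are, the SE of RpL32 was 0.12 rather than 0.19, and 35 genes were called lower in males, beside 2.69% of all probes. With weights that let a variable array count for less, 46 were called lower, beside 6.66% of all probes. With only thorax arrays in the fit 3 were called lower, RpL9, RpL40 and RpS20, beside 0.675% of all probes. On slide A, which holds thorax of both sexes, the median change was −0.52. Of the 4 fat body markers given above, 3 were called lower in males on the relative scale. The yolk protein genes Yp1, Yp2 and Yp3 changed by −11.62, −9.59 and −9.85, and Lsp2 by −1.71. These changes do not measure the amount of fat body, and its part in the difference between the sexes was not tested.

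On germline replicate 1, probes of the same gene often disagreed. Of the 106 member probes whose mean over germline replicates 2 to 4 was above 10 on the log2 scale, 31 (29.2%) read more than 3 units lower on replicate 1, beside 21.7% of the 15261 other probes as bright. Of the 32 genes with more than 1 such probe, 18 had a probe that was lower by that margin, and in 16 of these another probe of the same gene was less than 1 unit lower. Only RpL26 and RpL35 had every such probe that low. On each thorax array 0 member probes read that far under the other arrays of its tissue.

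RpL13 shows this most plainly, a gene chosen after its values were seen. Its brightest probe read 17.60, 17.20, 17.44 and 17.54 on germline arrays 1 to 4, and its second probe, annotated to the same transcript, read 5.14, 16.92, 17.14 and 17.31. In male thorax that second probe read 17.00, 17.28, 16.14 and 16.45. RpL5 (chosen likewise), which with RpL11 carries a small ribosomal RNA into the large subunit, has 7 probes. They read 17.55, 14.18, 10.64, 9.59, 9.27, 8.91 and 6.33 on germline replicate 1, and all 7 lay between 16.75 and 17.30 on replicates 2 to 4. The probes of one gene thus parted on that array alone.

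**Figure D4:**
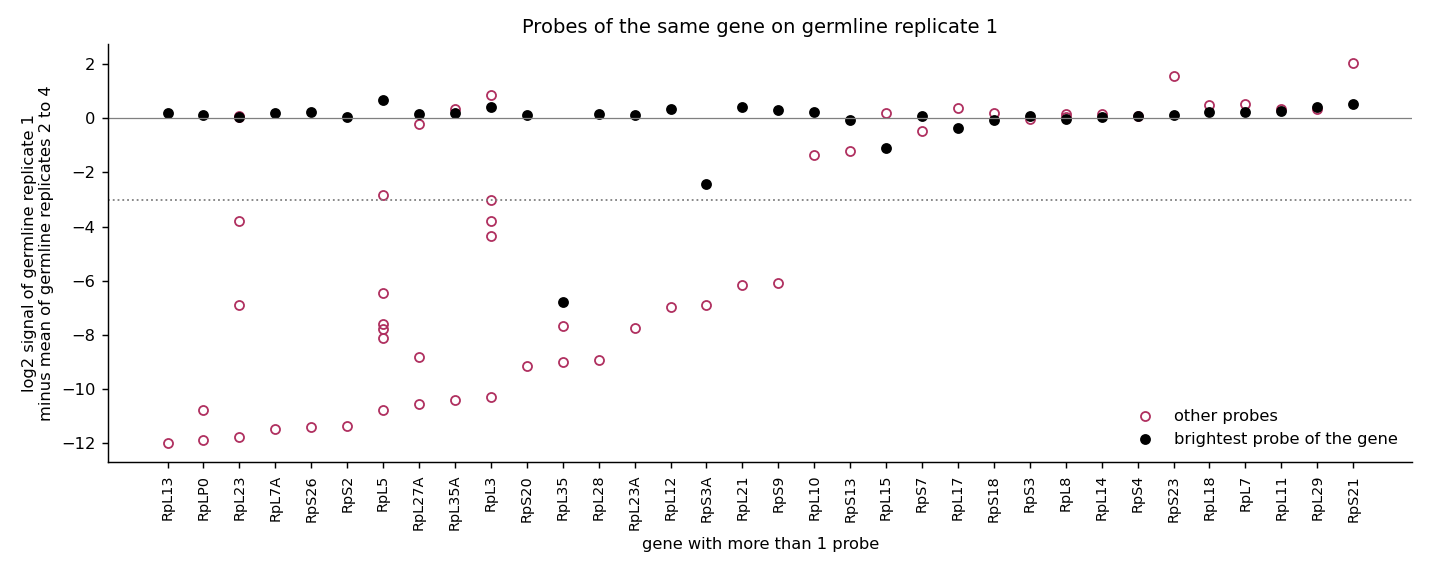
For the 34 genes with more than 1 probe, the log2 signal of each probe on germline replicate 1 minus its mean over germline replicates 2 to 4, with the brightest probe of a gene as a filled point and the others as open points. The dotted line marks 3 units below. The brightest probe stays near 0 except for RpL35, RpS3A and RpL15. Some other probes lie more than 10 units down, in RpL3, RpL5, RpL7A, RpL13, RpL23, RpL27A, RpL35A, RpLP0, RpS2 and RpS26.

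The spots did not disagree within the array. Over the 40 member probes spotted at 2 places, the spots differed by a median of 0.10 and at most 0.37 log2 units on germline replicate 1, against medians of 0.03 to 0.09 on the other arrays. Of the bright member probes with 1 spot, 29 of 68 (42.6%) were low on that array, and of those with 2 spots 2 of 38 (5.26%), beside 29.0% and 10.9% among other probes. Over all probes the other 3 germline arrays correlated with each other at 0.99 or more. What sets that array apart was not tested. Without it the 34 genes with several probes had a median range between their probes of 0.18 log2 units in the change against male thorax, and with it 1.22.

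The choice of the brightest probe over 12 arrays favours probes that stayed bright on germline replicate 1. With the mean over all probes of a gene in its place, the median change against male thorax was −2.35 on the relative scale rather than −2.12. Without replicate 1 all 56 genes were called lower on that scale, beside 51.1% of all probes, and the median was −2.12.

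A few probes read their gene much lower than its brightest probe did. They are 9 probes whose tissue means were all under 14, 4 of them of RpL3, a protein near the peptidyl transferase centre, and 1 each of RpL7, RpL17, RpS7, RpS21 and RpS23. Probe levels cannot be ranked against each other on an array, but the changes can be compared. In RpL3, whose probes are annotated to 3 transcripts, the unscaled changes against male thorax without germline replicate 1 spread over 2.51 units, the widest range of any gene. No gene had probes called in opposite directions in any of the 3 comparisons, with or without scaling and with or without replicate 1.

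The 5 X-linked members, RpL7A, RpL17, RpL35, RpL36 and RpS6, were set beside the 50 on the large autosomes, since the study asked how X-linked and autosomal genes compare in germline. RpS6 is the member that S6 kinase phosphorylates in growing cells. On the relative scale the median change from male thorax to germline was −2.21 for the X-linked and −2.07 for the autosomal members, and 0.13 and 0.27 unscaled. The gap was −0.14 with all arrays and 0.00 without germline replicate 1, in which all probes of RpL35 were low. Over all tested probes whose gene could be placed on an arm the medians were −1.22 for X-linked and −0.51 for autosomal ones on the relative scale. Against female thorax the gap among the members was 0.07. With 5 genes no comparison was tested.

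Other genes of translation on the array were set beside these changes, and for all of the lists the scale moved the counts. All 7 elongation factor genes were called lower in germline than in male thorax on the relative scale, with a median of −1.92, whereas unscaled 2 were called higher and 0 lower, with a median of 0.42. Of 24 initiation factor genes, 8 were called lower and 4 higher on the relative scale, with a median of −0.14, and unscaled 0 were lower and 20 higher, with a median of 2.20. Of 70 mitochondrial ribosomal protein genes, 20 were called lower and 16 higher, with a median of −0.31, and unscaled 1 was lower and 57 higher, with a median of 2.03.

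Of 20 genes of ribosome biogenesis, such as those of nucleolar proteins that modify and assemble ribosomal RNA, 2 were called lower and 9 higher on the relative scale, with a median of 0.68, and unscaled 0 were lower and 18 higher, with a median of 3.02. Of 12 growth regulators of the Myc and Tor pathways, 6 were called lower and 2 higher, with a median of −1.03, and unscaled 3 were lower and 6 higher, with a median of 1.31. Of the 36 other genes named like ribosomal proteins, 26 were called lower and 6 higher, with a median of −2.04 and changes of up to 9.76, and unscaled 2 were lower and 11 higher, with a median of 0.31. Over all probes 47.2% were lower and 29.3% higher on the relative scale, with a median of −1.05, and unscaled 24.5% were lower and 48.2% higher, with a median of 1.29. The differences between the lists were not tested.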

How the data were processed

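Total RNA of 12 pools was hybridised to 1-color Agilent arrays. The intensities, as deposited, are Feature Extraction's background-subtracted processed signals per spot, with no scaling between arrays. Per the file headers the version was 10.5.1.1, and the submitters' processing notes name Feature Extraction 9.1 and limma. The authors also deposited log2 values per tissue, averaged over arrays, which served as an alternative without a test.

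Control spots and spots flagged as outliers or by hand were left out, spots of a probe were averaged, and log2 was taken. The main setting subtracted each array's 75th percentile. Probes with a mean log2 of at least 7 (unscaled) in 1 or more tissues were tested with limma 3.58.1 in R 4.3.3, with all 12 arrays in the fit and Benjamini-Hochberg adjustment over all probes tested. The number of arrays limits the precision, and p-values measure the spread between these pools. Fits were tested on simulated data.

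Probes were assigned through RefSeq's table by locus tag (18121), older locus tag or synonym (1441) or accession (115), and 12485 were unmatched. All 109 member probes matched by locus tag. The reference is of a later release than the array's annotation, so only the chromosome arm was taken from it. No sequences were used here.

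The members, the gene lists and the tests were chosen with earlier results of these data known. Genes were named by rule: RpL32, the 2 highest and 2 lowest changes of each subunit against male thorax, RpL40 and RpS27A, the stalk genes, and any gene called between the sexes or with probes called in opposite directions. Genes outside it are said to be so or were named to account for a small count.

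Alternatives were other scalings (none, quantile normalization, centring on the median), normexp background correction with an offset of 50, other filters, slide as a block, within-slide values, array weights, 2 tissues in the fit, leaving out each array, and the mean of a gene's probes. Leaving out germline replicate 1 together with no scaling, and from slide B alone, was chosen after seeing the data.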

Additional observations from a re-analysis of the deposited data

Results flagged for a closer look

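Within each group of 4 arrays, the relative signal of the named genes and the medians of both subunits were searched for an array set apart from the other 3, in 51 groups. In groups chosen without regard to their values, chance alone sets an array apart in about 1 of 20. RpL26, RpL35 and RpS3A were named for a low change that their low array made larger. The count can therefore not be compared with that rate. An array was set apart in 6 groups. Of these, 3 are on germline replicate 1: RpL26 at −7.57, RpL35 at −3.94 and RpS3A at 1.19 log2 units relative to the 75th percentile, against 2.27 to 2.43, 2.77 to 2.96 and 3.53 to 3.67 on the other germline arrays. RpLP2 read 3.86 on germline replicate 2, where the other arrays read 4.02. RpS3A read 5.42 on male thorax replicate 4, against 5.60 to 5.64. The large subunit's median less that of the small subunit was 0.11 on female thorax replicate 2, against −0.01 to 0.01 on the other female arrays.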

How the results depend on the processing

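The fall of the ribosomal protein genes in germline on the 75th percentile scale held its count of calls and its direction under centring on the median, normexp, both other filters, locus tags only, slide as a block, array weights, 2 tissues in the fit and each array left out, where 51 to 56 genes were called lower than in male thorax. It did not hold without scaling or after quantile normalization. For changes of scale and of arrays the cause was not tested. The 4 arrays per tissue, and probes at the top of the signal range, limit what can be told.

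Without scaling, 0 genes were called lower and 2 higher than in male thorax, with a median change of 0.23, and 0 lower and 2 higher than in female thorax, with a median of −0.017. The median between the sexes was −0.23. The changes against male thorax turned to 0.09 for RpL32, 1.03 for RpL18, 0.67 for RpL6, 0.95 for RpS2, 0.68 for RpS12, 0.57 for RpL40, 0.04 for RpS27A, 0.59 for RpLP0 and 0.28 for RpLP1. Without scaling and without germline replicate 1, 0 genes were called lower and 3 higher than in male thorax (median 0.22), and 2 lower and 2 higher than in female thorax (median −0.013). The median between the sexes was −0.23. The changes against male thorax were then 0.00 for RpL32, 0.97 for RpL18, 0.60 for RpL6, 0.28 for RpL35, 1.28 for RpL26, 0.94 for RpS2, 0.66 for RpS12, 0.38 for RpS3A, 0.51 for RpL40, 0.03 for RpS27A, 0.55 for RpLP0 and 0.31 for RpLP1.

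With quantile normalization, 17 genes were called lower and 1 higher than in male thorax, with a median of −0.31, which was 0.043 above that of all probes. Against female thorax 25 were called lower and 1 higher, with a median of −0.48, and between the sexes the median was −0.14. The large less the small subunit was 0.018 against male and 0.076 against female thorax. The X-linked less the autosomal members were −0.28, −0.145 and 0.029 in the 3 comparisons. RpL18 turned to 0.16, RpS2 to 0.73, RpL40 to 0.03 and RpLP0 to 0.15.

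Centring on the median gave medians of −1.21 and −1.83 against male and female thorax. The mean of all probes of a gene gave −2.35 and −2.995, with −0.16 between the subunits against male thorax. The authors' table, which is unscaled and holds 55 of the 56 genes, gave medians of 0.22, −0.021 and −0.23 in the 3 comparisons. The gap of the genes' median to that of all probes, against male thorax, was −1.65 in that table and −1.45 with locus tags only. With normexp the median against female thorax was −2.49, and the subunits differed by −0.26 and −0.16. Against male thorax they differed by −0.15 with array weights and by −0.26 on slide B alone (−0.21 there without germline replicate 1, where the gap to all probes was −1.44), and by −0.24 to −0.18 as each array was left out. Against female thorax that range was −0.14 to −0.066. The X-linked gap was 0.00 without germline replicate 1.

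Between the sexes 46 genes were called lower in males with array weights, 3 with only thorax arrays in the fit, and 0 to 35 as each array was left out, the 35 without germline replicate 1. No paired analysis was possible because the labels give the arrays no replicate numbers, and those used here name only slide and position. Slide was used as a block instead.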
